A study of Mus musculus with 12 samples.

Results

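The genes examined here encode 9 ion channels with which sensory neurons detect heat, cold, irritants, acid, extracellular ATP and touch: Trpv1, Trpm3, Trpa1, Trpm8, Asic1, Asic2, Asic3, P2rx3 and Piezo2. They were chosen by gene name, and each of the 9 names matched a single gene among the 49315 genes counted. Expression was measured by bulk RNA-seq of dorsal root ganglia (DRG) from 12 mice aged 10 months, with 8 ganglia pooled per mouse and 1 library each. The 6 Nf2 mice carried Postn-Cre and Nf2 flox/flox, and the 6 DKO mice carried the same alleles together with Fak1 flox/flox, so that Nf2 was targeted in all 12 mice and no mouse with intact Nf2 was compared. Postn-Cre is driven by Periostin regulatory sequence and is known to act in the Schwann cell lineage, whereas DRG neurons are the main known source of these channels. The comparison therefore asks whether channel transcript levels in the whole ganglion differed once Fak was also targeted. Each genotype held 3 mice labelled male and 3 labelled female.

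DRG neurons send an axon to the periphery and open cation channels at its ending when a stimulus arrives. TRP channels respond to temperature and to chemicals such as capsaicin, menthol or mustard oil, acid-sensing ion channels (ASICs) open when protons accumulate, P2X receptors open on ATP released from damaged cells, and Piezo channels open when the membrane is stretched. The channels are divided among kinds of neurons: Trpv1 and Trpa1 mark many nociceptors, Trpm8 marks cold-sensing neurons, P2rx3 is rich in nonpeptidergic nociceptors, and Piezo2 serves light touch and position sense. In whole tissue, fewer neurons of a kind and less RNA per neuron cannot be told apart.

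Library totals ranged from 21129191 to 41250329 reads, and each member had at least 314 reads in each mouse, so that the spread between mice rather than counting error set the precision. Levels are given as CPM, read counts scaled to the library total. All 14 pan-neuronal marker genes were detected and tested, among them Rbfox3, Tubb3 and Snap25, and their summed level ranged from 12387 to 16412 CPM in Nf2 mice and from 13698 to 15093 CPM in DKO mice. Whole-gene counts of the targeted genes did not separate the genotypes. Ptk2, which encodes Fak, had 65.8 to 75.5 CPM in Nf2 mice and 46.5 to 76.0 CPM in DKO mice, and Nf2 had 109 to 143 and 99.2 to 132 CPM. Mouse 702, labelled male in the Nf2 group, had 496 CPM of Xist and 0.525 CPM of Ddx3y, which lay within the range of the mice labelled female, so results by sex are given with and without it. Mice 649 (Nf2) and 887 (DKO) stood apart by the share of reads from the mitochondrial genome, at 4.45% and 5.60%, against 1.99% to 3.15% in the other mice.

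The members spanned a wide range of abundance. Because longer transcripts collect more reads, levels of different genes are compared only as CPM per kilobase (kb) of merged exons, averaged over the 12 mice (mean ± SD, n = 12). P2rx3, the ATP receptor, led with 60.8 ± 10.7 CPM per kb, above the level of 96.3% of the 18242 tested genes with a known length. Asic3, an ASIC subunit sensitive to small falls in pH, followed at 31.5 ± 5.92 CPM per kb, and Piezo2, the touch channel, at 30.0 ± 2.75 CPM per kb. These neighbours did not differ beyond their spread, as Asic3 lay above Piezo2 in 5 of 12 mice, and they changed places when length was taken from the longest transcript.

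Trpv1, the capsaicin and heat receptor, came next with 19.7 ± 2.81 CPM per kb and exceeded the gene below it in all 12 mice. Asic2, a subunit that combines with other ASICs, had 15.5 ± 1.94 CPM per kb, and Trpa1, the receptor for mustard oil and other irritants, had 13.98 ± 1.90 CPM per kb. Asic2 lay above Trpa1 in 8 of 12 mice, so this step of the order was also within their spread. The last members were clearly ordered, each above the next in all 12 mice: Asic1 at 8.57 ± 1.04 CPM per kb, the menthol and cold receptor Trpm8 at 5.91 ± 1.27 CPM per kb, and the steroid- and heat-gated Trpm3 at 1.38 ± 0.414 CPM per kb.

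The low place of Trpm3 depended in part on how its length was counted. Its annotation holds 24 transcripts with 24.4 kb of merged exons, and by its longest transcript of 12305 bases its level was 2.74 ± 0.822 CPM per kb, still the lowest of the 9. P2rx3 exceeded Trpm3 by 44.0 times in mean CPM per kb of merged exons. On this scale Trpm3 lay above 29.3% of tested genes and Trpm8 above 58.8%, while Trpa1, Asic2, Trpv1, Piezo2 and Asic3 lay above 79.2% to 91.5%.

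**Figure D1:**
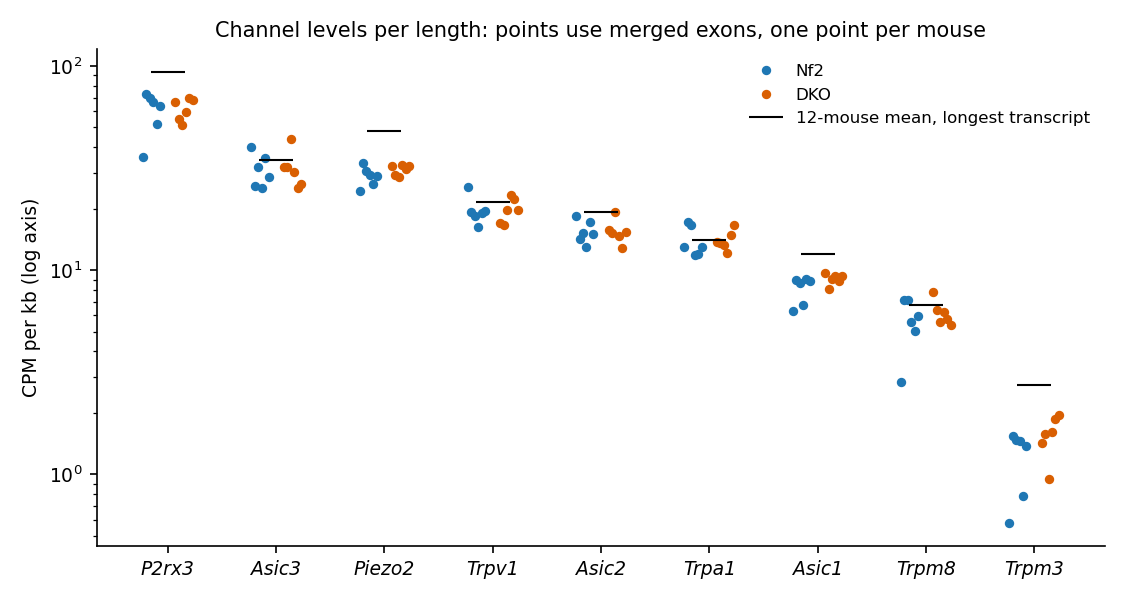
Level of each channel gene as CPM per kb of merged exons on a log axis, with a point per mouse in blue for Nf2 (n = 6) and orange for DKO (n = 6), and a black bar for the 12-mouse mean by longest transcript. P2rx3 was highest at a mean of 60.8 CPM per kb and Trpm3 lowest at 1.38, and the genotypes overlapped for each gene.

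None of the 9 members passed the genotype test. Log2 fold changes (DKO minus Nf2) ran from -0.014 for Asic2 to 0.36 for Trpm3 with a median of 0.018, beside a median of 0.0047 over all tested genes. The edgeR quasi-likelihood F test called 0 of 9 members at an adjusted p under 0.05, where 0.940% of the 18295 tested genes were called. At an unadjusted p under 0.05 it also called 0 of 9, where 14.9% of tested genes were called. DESeq2 called 0 of 9 beside 4.64% of its genes, and limma voom 0 of 9 beside 2.85%. None of the members had genotypes without overlap in CPM, which 1.95% of tested genes had. A p above the threshold does not show equal levels, so each difference is given with its 95% interval, and these p-values measure the spread between mice that the labels number separately.

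Among the heat channels, Trpv1 (ENSMUSG00000005952, GRCm38 chromosome 11, 73234292 to 73261242, plus strand) had 59.8, 70.6 and 94.4 CPM as the lowest, median and highest of the Nf2 mice and 61.1, 72.7 and 85.8 CPM in DKO mice. The groups overlapped almost fully, and mouse 649 alone set the upper end of the Nf2 group. Means were 72.4 ± 11.6 and 72.9 ± 10.0 CPM (SD, n = 6), and the log2 fold change was -0.011 ± 0.11 (SE), with a 95% interval from -0.25 to 0.23 and an edgeR adjusted p of 0.975.

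Trpm3 (ENSMUSG00000052387, chromosome 19, 22139046 to 22995410, plus strand) showed the largest difference among the members. It had 14.1, 34.6 and 37.5 CPM as the lowest, median and highest of the Nf2 mice and 23.1, 39.0 and 47.8 CPM in DKO mice. Of the 6 DKO mice, 4 lay above the highest Nf2 mouse, while mouse 887 lay below the Nf2 median, and Nf2 mice 649 and 1048 were far below the other 4 of their group. Means were 29.3 ± 10.1 and 38.2 ± 8.80 CPM (SD, n = 6), a log2 fold change of 0.36 ± 0.23 (SE), a 95% interval from -0.14 to 0.86 and an edgeR adjusted p of 0.517. Without mouse 649 it was 0.22. Its biological coefficient of variation of 28.4% exceeded that of 82.4% of tested genes. The gene also hosts Mir204 and overlaps antisense transcripts over at most 351 exonic bases, and these held 473 reads or fewer in all mice together.

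Trpa1 (ENSMUSG00000032769, chromosome 1, 14872648 to 14918862, minus strand) had 50.6, 55.3 and 73.4 CPM as the lowest, median and highest of the Nf2 mice and 51.8, 58.2 and 70.7 CPM in DKO mice. The ranges nearly coincided. Its log2 fold change was -0.011 ± 0.11 (SE), with a 95% interval from -0.24 to 0.22 and an edgeR adjusted p of 0.974.

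Trpm8 (ENSMUSG00000036251, chromosome 1, 88277661 to 88389293, plus strand) had 13.4, 27.3 and 33.9 CPM in the lowest, median and highest Nf2 mouse and 25.6, 28.5 and 36.9 CPM in DKO mice. Mouse 649 was low for its group, and the other mice of both genotypes were interleaved. The log2 fold change was 0.13 ± 0.18 (SE), with a 95% interval from -0.26 to 0.51 and an edgeR adjusted p of 0.799. Without mice 649 and 887, the 2 with the highest mitochondrial shares, it was 0.0087 ± 0.12, and without mouse 649 alone -0.0080 ± 0.12.

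The ASIC subunits form trimers that conduct sodium when the pH outside the cell falls. Asic1 (ENSMUSG00000023017, chromosome 15, 99670368 to 99701130, plus strand) had 36.1, 50.4 and 52.0 CPM in the lowest, median and highest Nf2 mouse and 46.2, 52.9 and 55.3 CPM in DKO mice. There were 4 DKO mice above the highest Nf2 mouse, and mice 649 and 918 lay well below the rest of the Nf2 group. Means were 46.4 ± 7.06 and 51.9 ± 3.20 CPM (SD, n = 6), a log2 fold change of 0.14 ± 0.091 (SE), a 95% interval from -0.051 to 0.34 and an edgeR adjusted p of 0.497, the lowest among the members. Without mouse 649 it was 0.085.

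Asic2 (ENSMUSG00000020704, chromosome 11, 80880169 to 81968457, minus strand) had 55.2, 64.5 and 78.3 CPM in the lowest, median and highest Nf2 mouse and 54.7, 65.3 and 82.3 CPM in DKO mice. Asic3 (ENSMUSG00000038276, chromosome 5, 24413392 to 24417835, plus strand) had 61.5, 73.6 and 97.4 CPM in Nf2 mice and 61.5, 75.5 and 106 CPM in DKO mice. For both subunits the groups covered nearly the same range, with mouse 649 highest in the Nf2 group and mouse 887 highest in the DKO group. The log2 fold change of Asic2 was -0.014 ± 0.10 (SE), with a 95% interval from -0.24 to 0.21 and an edgeR adjusted p of 0.968. That of Asic3 was 0.0041 ± 0.15 (SE), with an interval from -0.31 to 0.32 and an edgeR adjusted p of 0.993.

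P2rx3 (ENSMUSG00000027071, chromosome 2, 84998583 to 85037462, minus strand) had 100.1, 182 and 203 CPM in the lowest, median and highest Nf2 mouse and 143, 175 and 194 CPM in DKO mice. All DKO mice lay inside the Nf2 range. Its log2 fold change was 0.018 ± 0.14 (SE), with a 95% interval from -0.29 to 0.33 and an edgeR adjusted p of 0.970. Ssrp1 on the opposite strand shares 51 exonic bases with P2rx3, and as the strand setting of the counting was not given in the sources used here, reads from those bases could belong to either gene.

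Piezo2 (ENSMUSG00000041482, chromosome 18, 63010213 to 63387183, minus strand) had the most reads of the 9, with 418, 498 and 572 CPM in the lowest, median and highest Nf2 mouse and 489, 546 and 563 CPM in DKO mice. All DKO mice lay inside the Nf2 range, and mouse 887 lay below the Nf2 median. Means were 494 ± 54.5 and 535 ± 30.7 CPM (SD, n = 6), a log2 fold change of 0.093 ± 0.077 (SE), a 95% interval from -0.071 to 0.26 and an edgeR adjusted p of 0.629. Without mouse 649 it was 0.053. Its biological coefficient of variation of 10.3% was the smallest of the members.

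**Figure D2:**
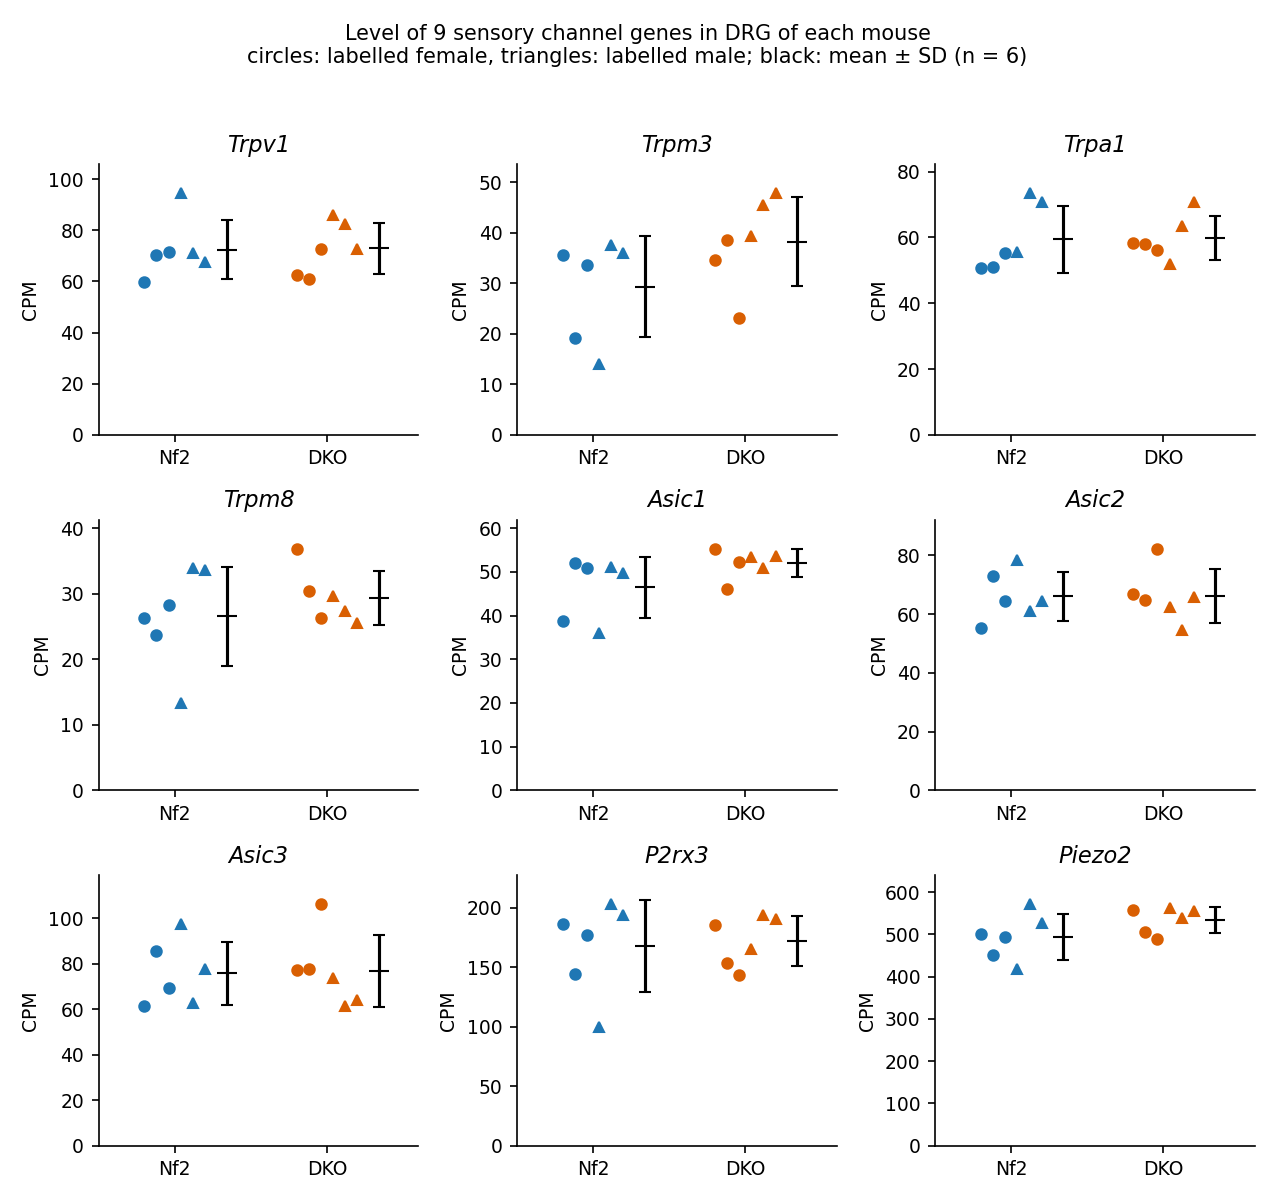
CPM of each channel gene in each mouse, on axes that start at 0, with Nf2 mice in blue and DKO mice in orange, circles for mice labelled female, triangles for mice labelled male, and the mean ± SD (n = 6) in black. The genotypes overlapped in all 9 genes, and 4 DKO mice lay above every Nf2 mouse for Trpm3 and for Asic1.

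The biological coefficient of variation of the members exceeded that of 18.5% (Piezo2) to 82.4% (Trpm3) of tested genes, and some of them varied in opposite directions among the mice. Trpm3, Trpm8, P2rx3 and Piezo2 were lowest in Nf2 mouse 649, and Trpm3, P2rx3 and Piezo2 were lowest of the DKO group in mouse 887, the same mice in which Asic2 and Asic3 were highest. From the lowest to the highest mouse, Trpm3 spanned 3.39-fold, Trpm8 2.76-fold and P2rx3 2.03-fold, whereas Piezo2 spanned 1.37-fold. On the scale of log2(CPM + 4) relative to the 12-mouse mean, mouse 649 was at -1.003 for Trpm3, -0.85 for Trpm8 and -0.72 for P2rx3, and at 0.24 for Asic2 and 0.36 for Asic3. Mouse 887 was at -0.42 for Trpm3 and 0.48 for Asic3, and Nf2 mouse 1048 at -0.65 for Trpm3 and 0.18 for Asic3. Trpv1, Trpa1 and Asic1 followed neither set throughout: in mouse 649, Trpv1 was high at 0.37 and Asic1 low at -0.40.

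**Figure D3:**
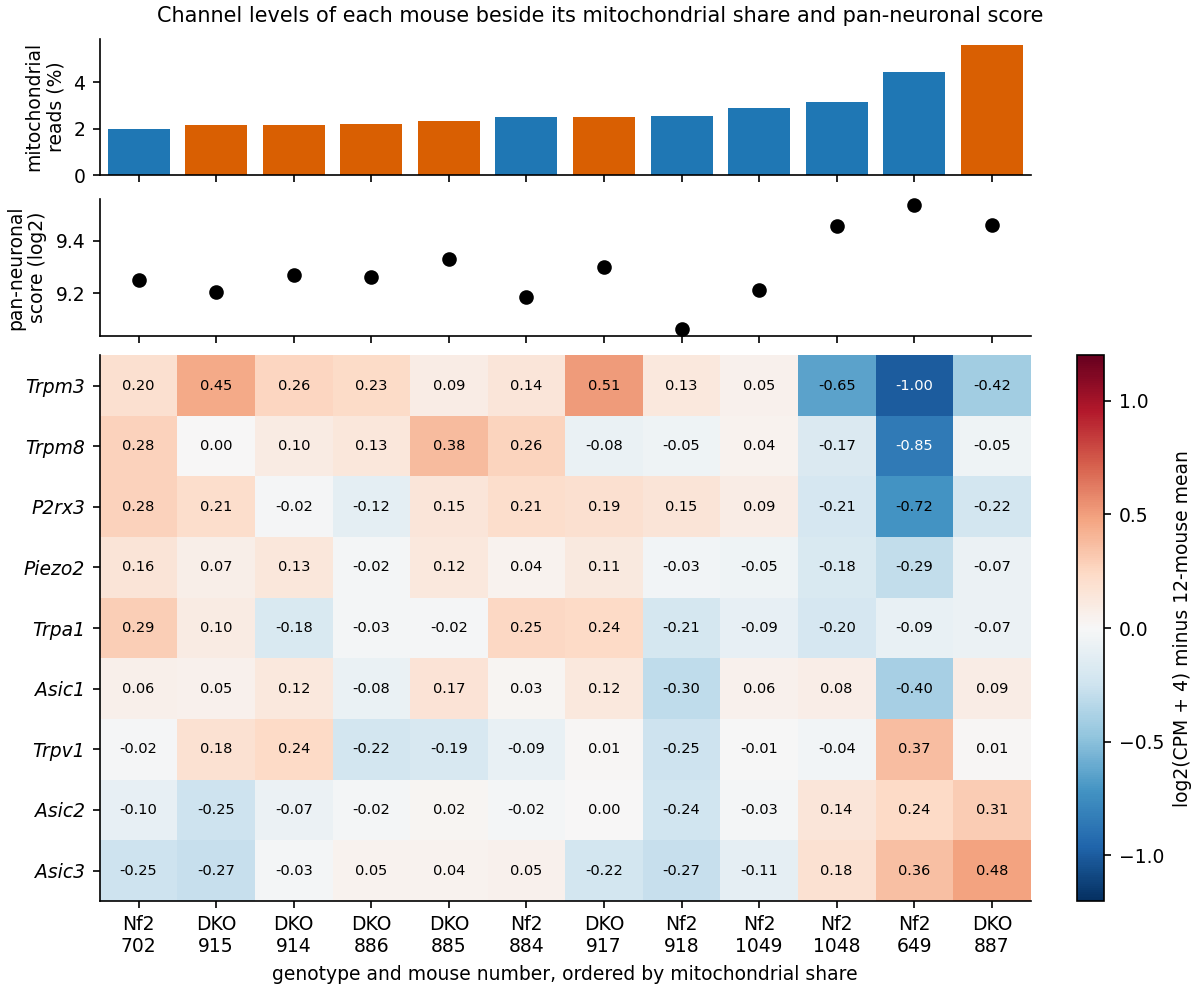
Each column is a mouse, ordered by its mitochondrial share of reads, plotted as bars in percent (blue Nf2, orange DKO) above its pan-neuronal score in log2(CPM + 4). The coloured cells give each channel gene's log2(CPM + 4) minus its 12-mouse mean. In the last 3 columns, mice 1048, 649 and 887, Trpm3, Trpm8, P2rx3 and Piezo2 were below their means and Asic2 and Asic3 above theirs.

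Correlations over the 12 mice described these sets. Of the 36 pairs of members, 11 passed an adjusted permutation p of 0.05 for Pearson's r, 7 positive and 4 negative, but only Asic2 with Asic3 also passed for Spearman's rho. That pair had r = 0.93 (adjusted permutation p = 0.00072) and rho = 0.88 (adjusted permutation p = 0.0104), and r was 0.81 without the 2 mice farthest from the median of Asic2, 649 and 887. Within the Nf2 mice r was 0.95 and within the DKO mice 0.90. Asic2 and Asic3 can assemble in the same trimer.

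Trpm3 and Asic3 ran against each other, with r = -0.80 (adjusted permutation p = 0.0119), rho = -0.66 (adjusted permutation p = 0.106) and r = -0.80 without mice 1048 and 649. Within genotypes their r was -0.90 in Nf2 and -0.98 in DKO mice. Trpm3 with Piezo2 had r = 0.88 (adjusted permutation p = 0.00486) and rho = 0.76 (adjusted permutation p = 0.0715), but r fell to 0.58 without those 2 mice. Trpm8 with P2rx3 had r = 0.83 (adjusted permutation p = 0.0204) and rho = 0.52 (adjusted permutation p = 0.215) over all 12 mice. Its r was 0.97 within Nf2 mice, against 0.12 within DKO mice, and 0.47 without mice 649 and 885 together. All of these pairs come from the same libraries and share their totals and their mitochondrial shares.

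The pan-neuronal score and the mitochondrial share went with the levels of some members. The pan-neuronal score, the mean log2(CPM + 4) of the 14 marker genes, was 9.28 ± 0.18 in Nf2 and 9.31 ± 0.087 in DKO mice (SD, n = 6), a difference of 0.022 (two-sided exact permutation p = 0.779). It was highest in mice 649, 1048 and 887, so the mice with the most neuronal marker RNA had the least Trpm3. Over the 12 mice the score went with Asic2 (r = 0.90, adjusted permutation p = 0.00117; rho = 0.87, adjusted permutation p = 0.00468) and Asic3 (r = 0.82, adjusted permutation p = 0.00387; rho = 0.70, adjusted permutation p = 0.044) and against P2rx3 (r = -0.79, adjusted permutation p = 0.00387; rho = -0.73, adjusted permutation p = 0.0416). Without the 2 mice farthest from its median, 918 and 649, these were 0.85, 0.74 and -0.74. The score also went against Trpm3 by Pearson's r (-0.78, adjusted permutation p = 0.00677) but not by Spearman's rho (-0.48, adjusted permutation p = 0.231).

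The mitochondrial share went with Asic2 and Asic3 (r of 0.83 for each) and against Trpm3 (r = -0.75), P2rx3 (r = -0.70) and Piezo2 (r = -0.66). These 5 of 9 relations passed an adjusted permutation p of 0.05 by both measures, from 0.00441 for Asic2 to 0.0473 for P2rx3 and Piezo2 by Pearson's r. Spearman's rho was 0.71 for Asic2, 0.64 for Asic3, -0.76 for Trpm3, -0.71 for P2rx3 and -0.87 for Piezo2, with adjusted permutation p from 0.00405 for Piezo2 to 0.0446 for Asic3. Without the 2 mice with the highest shares, 649 and 887, r was -0.82 for Piezo2 and -0.71 for Trpm3 but only 0.52 for Asic2, 0.42 for Asic3 and -0.46 for P2rx3. The part of RNA quality or of neuron content in the levels of these channels was not tested.

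With the pan-neuronal score of each mouse as a covariate, Trpm3 was the only member that passed, at 0.48 ± 0.11 in log2 fold change (SE, edgeR adjusted p = 0.0317). This was 1 of 9 members, in a fit that called 4.91% of all tested genes. Over all 27 alternatives to the genotype test, the adjusted p of Trpm3 ranged from 0.0317 to 0.953. With the mitochondrial share as the covariate the value was 0.35 ± 0.15 (adjusted p = 0.222), and without mice 649 and 887 it was 0.31 ± 0.16 (adjusted p = 0.343), both by edgeR. The covariate left the other 8 members between -0.042 for Asic2 and 0.19 for Trpm8.

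**Figure D4:**
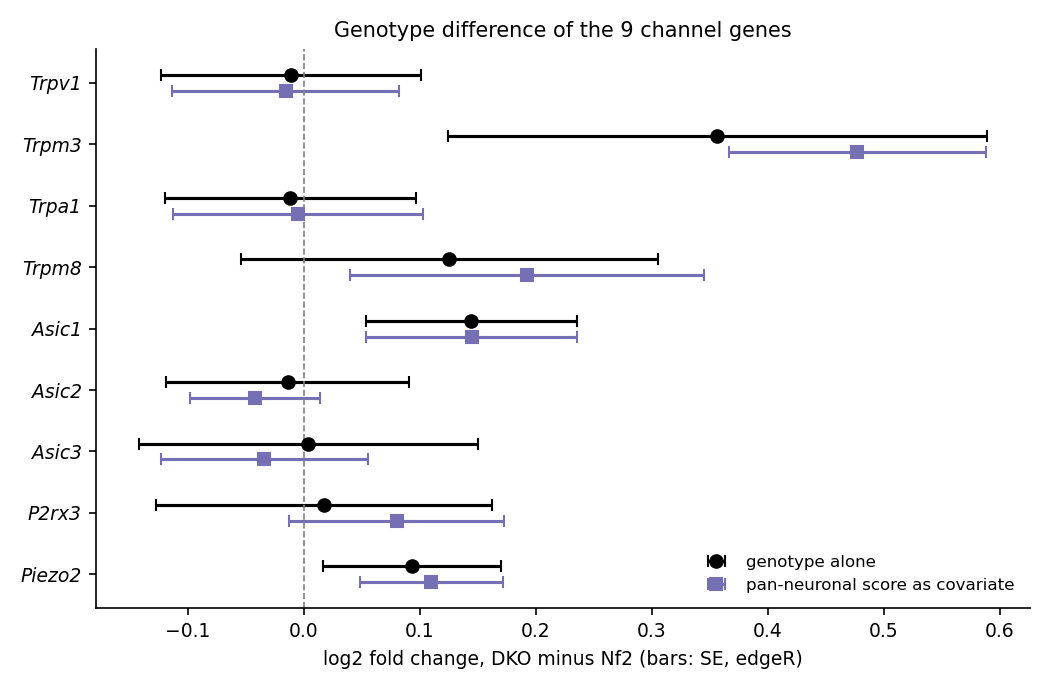
Log2 fold change of each channel gene (DKO minus Nf2) with its SE from edgeR, for genotype alone (black circles) and with the pan-neuronal score as covariate (purple squares). Trpm3 lay farthest from 0 in both fits, at 0.36 ± 0.23 and 0.48 ± 0.11, and the other 8 genes lay between -0.042 and 0.19.

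The stretches of DNA before the start sites of Trpm3, Asic2 and Asic3 are shown because Trpm3 was low in the mice in which the other two were high, and that of Trpm8 because Trpm8 was low in mouse 649. RefSeq (GRCm38.p6) windows from 250 bases before to 50 bases after a start site were used for 6 of the 9 members, in 8 windows. Whether RefSeq also holds windows for the other members is not reported here. Trpm8 is chr1:88306485-88306784, plus strand, which lies inside the annotated span of the gene and not at its 5′ end. Trpm3 is the farthest upstream of its windows, chr19:22138796-22139095, plus strand. Asic3 is chr5:24413201-24413500, plus strand, and Asic2 is the window at the 5′ end of the gene, chr11:81968347-81968646, minus strand. Each is printed 5′ to 3′ along the gene, and capitals mark TATAAA and CCAAT on either strand.
Trpm8: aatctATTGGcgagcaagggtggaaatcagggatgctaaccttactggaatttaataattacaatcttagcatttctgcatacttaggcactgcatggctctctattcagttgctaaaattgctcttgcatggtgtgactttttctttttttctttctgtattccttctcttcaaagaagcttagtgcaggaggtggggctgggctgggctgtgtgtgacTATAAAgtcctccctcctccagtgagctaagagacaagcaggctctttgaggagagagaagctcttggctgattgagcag
Trpm3: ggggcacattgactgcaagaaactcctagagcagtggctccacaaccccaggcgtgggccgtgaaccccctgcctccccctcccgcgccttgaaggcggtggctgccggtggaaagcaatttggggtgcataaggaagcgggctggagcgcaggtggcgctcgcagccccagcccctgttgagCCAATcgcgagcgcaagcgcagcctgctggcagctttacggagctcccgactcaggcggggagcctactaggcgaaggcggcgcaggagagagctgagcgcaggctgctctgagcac
Asic3: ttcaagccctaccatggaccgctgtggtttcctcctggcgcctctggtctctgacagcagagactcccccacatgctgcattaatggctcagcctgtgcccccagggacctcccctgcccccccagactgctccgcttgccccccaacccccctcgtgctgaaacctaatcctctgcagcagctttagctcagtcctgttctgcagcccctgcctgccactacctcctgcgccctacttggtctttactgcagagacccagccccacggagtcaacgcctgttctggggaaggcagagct
Asic2: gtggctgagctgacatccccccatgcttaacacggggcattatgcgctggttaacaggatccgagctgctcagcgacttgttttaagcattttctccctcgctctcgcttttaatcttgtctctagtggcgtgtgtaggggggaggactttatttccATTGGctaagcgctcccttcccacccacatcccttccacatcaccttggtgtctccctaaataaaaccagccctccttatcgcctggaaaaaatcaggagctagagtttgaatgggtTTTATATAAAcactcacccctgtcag

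The windows differed in these motifs and in base composition. TATAAA, which 13.6% of 32817 RefSeq windows of this length hold on either strand, occurred in that of Trpm8, 1 match, and in that of Asic2, 2 matches that overlap on opposite strands. CCAAT, which 37.4% of windows hold, occurred 1 time each for Trpm8, Trpm3 and Asic2 and not for Asic3. Base composition ran from 44.3% G and C with 1 CpG in Trpm8 to 66.7% with 21 CpG in Trpm3, around a median over all windows of 52.7% and 7 CpG. Asic3 had 62.0% and 7 CpG, and Asic2 49.7% and 9 CpG. The other Asic2 window, chr11:81152854-81153153 on the minus strand, had 65.3% and 16 CpG and held no match to either of the first 2 motifs. GGGCGG, held by 35.6% of windows, was in none of the 8 member windows used. CANNTG, held by 72.3%, was in those of Trpm8, Trpm3 and Asic3 but not in the printed window of Asic2. A match is a run of letters, not a measured binding site.

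Among 11965 genes with at least 5 CPM, those whose levels over the 12 mice were most like a member's by Pearson's r were listed as a description. Trpm3 had the closest neighbours, Cmtm4 (r = 0.99) and Herc2 (r = 0.98), the latter a large ubiquitin ligase, and P2rx3 was likewise followed by the translation factor Eif4g2 and by Enpp4 (both r = 0.98). The nearest to Trpm8 were Mdga1 (r = 0.95) and the metabotropic glutamate receptor Grm4 (r = 0.94), and those to Piezo2 were Tec (r = 0.95) and Ankfy1 (r = 0.94). Asic3 was tracked by Rpf2 (r = 0.96) and Kin (r = 0.95) and Asic2 by B3gat3 and Armcx1 (both r = 0.95). Matches were looser for Trpv1 (Plppr3 at r = 0.92 and Reep4 at 0.89), Asic1 (Jakmip1 at 0.91 and Cdh4 at 0.90) and Trpa1 (Cenpj at 0.85 and Tapbpl at 0.81). Spearman's rho of these 18 neighbours with their members ran from 0.71 for Cenpj to 0.96 for Herc2, and was 0.73 for Mdga1. None of the 18 was itself a member.

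Levels were next compared between mice labelled male and female, with genotype as a covariate. Trpv1 and Trpa1, which are often made by the same nociceptors, were higher in mice labelled male by an unadjusted p, and no member passed the adjusted threshold. Trpv1 had 67.6, 77.5 and 94.4 CPM in the lowest, median and highest male and 59.8, 66.4 and 72.7 CPM in females, and Trpa1 had 51.8, 67.1 and 73.4 CPM in males and 50.6, 55.7 and 58.4 CPM in females. The upper values of both genes came from mice labelled male, the highest of Trpa1 from mouse 702, while the lower mice labelled male lay among the females. The log2 differences (male minus female) were 0.25 ± 0.092 (SE) for Trpv1, with an edgeR unadjusted p of 0.0173, and 0.23 ± 0.093 for Trpa1, with an edgeR unadjusted p of 0.0295, and both had an adjusted p of 0.9999. These were 2 of 9 members at an unadjusted p under 0.05, beside 2.91% of tested genes, and 0 of 9 at the adjusted threshold, beside 0.0164%. Without mouse 702 the differences were 0.28 ± 0.10, with an edgeR unadjusted p of 0.0177, and 0.18 ± 0.089, with an edgeR unadjusted p of 0.0701, so that Trpa1 was no longer called. With each mouse left out in turn, Trpa1 missed an unadjusted p of 0.05 for 5 of 12 mice and Trpv1 for 0 of 12. The 95% intervals of the other 7 members included 0, with the widest for Trpm3, from -0.28 to 0.73, and the narrowest for Piezo2, from -0.086 to 0.25.

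The genotype difference of Asic3 had opposite signs in the sexes, at 0.28 ± 0.17 (SE) in females and -0.30 ± 0.17 in males on the log2 scale. In females Asic3 had 61.5, 69.3 and 85.7 CPM in the 3 Nf2 mice and 77.3, 77.7 and 106 CPM in the 3 DKO mice, and in males 62.6, 77.9 and 97.4 CPM in Nf2 mice and 61.5, 64.1 and 73.6 CPM in DKO mice. Within each sex the genotypes overlapped, in males only through mouse 702, the one at 62.6 CPM. The interaction was -0.58 ± 0.26 on the log2 scale (SE), with an edgeR unadjusted p of 0.0434 and an adjusted p of 0.920. With each mouse left out in turn it ran from -0.73 (without mouse 702) to -0.39 (without mouse 887), with -0.39 also without mouse 649, and it missed an unadjusted p of 0.05 for 7 of 12 mice. Without mouse 702 the difference in males was -0.45 ± 0.15. With all mice, Asic3 was the only member at an unadjusted p under 0.05, where 4.78% of tested genes were called, and 0 of 9 passed the adjusted threshold, where 0.0109% did. For Trpm3 the genotype difference was 0.55 ± 0.32 in males and 0.12 ± 0.26 in females, with an interaction of 0.43 ± 0.47. Without mouse 702 the male difference was 0.78 ± 0.35 and the interaction 0.66 ± 0.48, and without mouse 649 the interaction was 0.11 ± 0.33.

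The wider set of genes around these channels was read in 6 lists with 89 genes, of which 78 were tested: other TRP channels, other proton sensors, other purinergic receptors with ATP-handling enzymes, other mechanosensitive channels, channel partners and modulators, and receptors that sensitise nociceptors. None of the 78 passed the genotype threshold. At an unadjusted p under 0.05 there were 16 genes (20.5%), 7 higher and 9 lower in DKO, beside the 14.9% of all tested genes given above. Their median log2 fold change was -0.0095.

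Of the other TRP channels, 18 of 23 were tested, with a median log2 fold change of 0.035. At an unadjusted p under 0.05, 1 was higher and 1 lower, beside 14.9% of all tested genes called. Those with the highest levels per kb included Pkd2 and Trpv2. Pkd2, the polycystin channel of the primary cilium, had 118, 153 and 174 CPM as the lowest, median and highest of the Nf2 mice and 94.2, 117 and 145 CPM in DKO mice, or -0.38 ± 0.11 in log2 fold change (SE, edgeR adjusted p = 0.112). Trpv2, a relative of Trpv1, was at -0.10 ± 0.11.

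Among the other proton sensors, 7 of 8 were tested, with 2 higher and 1 lower at an unadjusted p under 0.05. Over all tested genes 14.9% were called. The 2 higher were Asic4 (0.94 ± 0.30 in log2 fold change, SE, edgeR adjusted p of 0.157) and Gpr4 (0.80 ± 0.25, edgeR adjusted p of 0.149). Both were named after their values were seen. Asic4 was scarce, with a mean of 0.331 CPM in Nf2 and 0.653 CPM in DKO mice. The 3 highest per kb were the proton-activated chloride channel Tmem206 (-0.017 ± 0.11 in log2 fold change, SE), the proton-sensing receptor Gpr65 (-0.49 ± 0.21, edgeR adjusted p of 0.282) and the proton channel Otop1 (0.18 ± 0.20). Gpr65 was at 4.23 ± 0.857 CPM in Nf2 and 3.05 ± 0.921 CPM in DKO mice (SD, n = 6). The list of 8 summed to 32.7 to 37.1 CPM in Nf2 mice and 30.7 to 40.5 CPM in DKO mice.

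Of the other purinergic genes, 18 of 20 were tested, with 1 higher and 3 lower at an unadjusted p under 0.05, and 14 of the 18 had a negative log2 fold change, with a median of -0.084. The 3 highest per kb take apart nucleotides outside the cell: Entpd2 (-0.32 ± 0.16 in log2 fold change, SE), Acpp (0.045 ± 0.098) and Entpd3 (-0.025 ± 0.079). Acpp, known as a marker of the nociceptors that also make P2rx3, had 285 to 360 CPM in Nf2 mice and 300.0 to 446 CPM in DKO mice. P2rx2, which can join P2rx3 in a mixed receptor, had 2.11 ± 0.853 CPM in Nf2 and 1.64 ± 0.881 CPM in DKO mice (SD, n = 6) and is named here after its values were seen.

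Genotypes did not overlap in CPM for 2 of the 78 related genes, P2ry13 and P2rx6, beside 1.95% of all tested genes. Both were chosen after their values were seen. P2ry13 had 6.12, 7.99 and 10.4 CPM as the lowest, median and highest of the Nf2 mice and 2.26, 4.67 and 5.92 CPM in DKO mice, or -0.92 ± 0.22 in log2 fold change (SE, edgeR adjusted p = 0.0699). P2rx6 had 15.2 to 17.9 CPM in Nf2 and 18.0 to 22.0 CPM in DKO mice, at 0.24 ± 0.072 with an edgeR adjusted p of 0.127. P2ry13 and Gpr65 are receptors known from microglia, macrophages and other immune cells. Of the 9 macrophage markers, 8 had a negative log2 fold change. At an unadjusted p under 0.05, 5 were lower and 1 higher (Cd163), beside 14.9% of all tested genes called. C1qb passed the adjusted threshold at -0.71 ± 0.12 (SE, edgeR adjusted p = 0.0138), which 0.940% of all tested genes passed. The summed macrophage level was 182 to 271 CPM in Nf2 and 156 to 203 CPM in DKO mice, and no marker was at 0. The part of macrophage RNA in P2ry13 and Gpr65 was not tested.

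In the list of other mechanosensitive channels, 8 of 9 genes were tested, with log2 fold changes from -0.14 to 0.20. None passed an unadjusted p of 0.05, where 14.9% of all tested genes were called. The 3 listed genes highest per kb were Tmem63b (0.031 ± 0.047, SE) and Tmem63c (0.20 ± 0.13), which belong to a family of osmotically gated channels, and Tmem120a (-0.042 ± 0.068). Channel activity of the listed genes was not measured here. Among partners and modulators, 14 of 15 were tested with 1 higher and 2 lower at an unadjusted p under 0.05, beside the same 14.9%. Those with the highest levels per kb included Pirt, which binds Trpv1 and Trpm8 (0.073 ± 0.061 in log2 fold change, SE), and the kinase Prkca (-0.094 ± 0.074). Stoml3, which tunes Piezo2, did not pass the filter on low counts, with at most 6 reads in a mouse.

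Of the sensitising receptors, 13 of 14 were tested. At an unadjusted p under 0.05, 2 were higher and 2 lower, beside 14.9% of all tested genes called. Those with the highest levels per kb included the cytokine receptor subunit Il6st (-0.064 ± 0.14 in log2 fold change, SE) and the TNF receptor Tnfrsf1a (-0.19 ± 0.065, edgeR adjusted p of 0.189). The 4 peptidergic markers summed to 853 to 1277 CPM in Nf2 and 897 to 1165 CPM in DKO mice, and 0 of 4 had an unadjusted p under 0.05. The 5 nonpeptidergic markers summed to 806 to 967 and 756 to 1011 CPM. Of these, 2 of 5 were lower at an unadjusted p under 0.05, beside 14.9% of all tested genes called. The 6 markers of A-fibre mechanoreceptors and proprioceptors, the neurons in which Piezo2 is best known, summed to 536 to 640 CPM in Nf2 and 583 to 695 CPM in DKO mice. Of these, 2 of 6 were higher at an unadjusted p under 0.05, beside the same 14.9%. None of these 15 markers passed the adjusted threshold, which 0.940% of all tested genes passed.

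**Figure D5:**
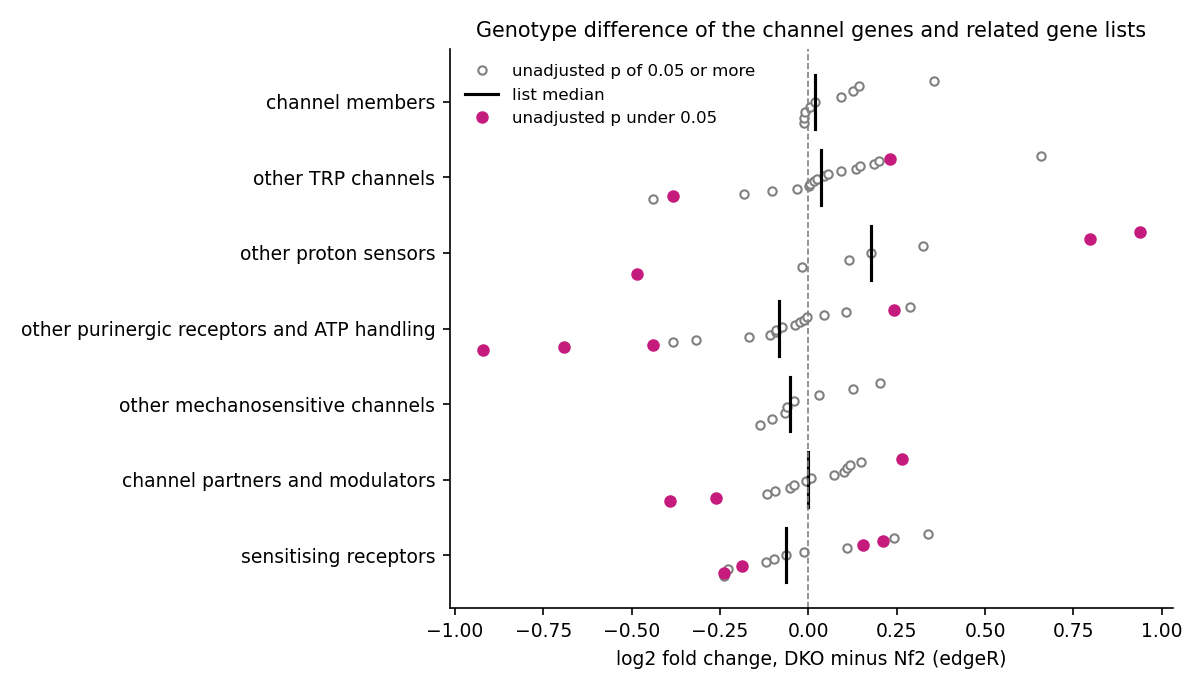
Log2 fold change (DKO minus Nf2, edgeR) of the 9 channel genes and of the 78 tested genes in 6 related lists, a point per gene, filled where the unadjusted p was under 0.05, with the list median as a black bar. No gene passed the adjusted threshold. The channel genes ran from -0.014 to 0.36, the purinergic list from -0.92 to 0.29 and the mechanosensitive list from -0.14 to 0.20.

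Markers of tissues outside the ganglion were also measured. All 8 skeletal muscle markers had a negative log2 fold change, 7 of them at an unadjusted p under 0.05 and none at the adjusted threshold. Over all tested genes, 14.9% were called by the unadjusted and 0.940% by the adjusted p. The muscle markers summed to 10.1 to 839 CPM in Nf2 and 15.9 to 282 CPM in DKO mice. All 7 tested of 8 markers of spinal cord neurons and glia had a positive log2 fold change, with a median of 0.66, 1 of them (Gfap) at an unadjusted p under 0.05, and summed to 31.2 to 122 and 75.9 to 208 CPM. Gfap, which satellite glia can also make, was at 1.22 ± 0.29 (SE, edgeR adjusted p = 0.070). All 4 tested of 5 adipocyte markers had a negative log2 fold change, 1 of them (Fabp4) at an unadjusted p under 0.05, and summed to 5.10 to 9.90 and 2.84 to 7.95 CPM. The part of such tissue in the levels of the channel genes was not tested beyond muscle. With the muscle score as a covariate, 0 of 9 members passed, and Trpm3 was at 0.43 ± 0.27 (SE, edgeR adjusted p = 0.481).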

How the data were processed

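RNA-seq of DRG from 12 mice was analysed from raw counts, which the authors deposited as unscaled whole numbers for each gene and mouse. The submitters' processing notes name Trimmomatic 0.36, STAR 2.5.2b, featureCounts, Subread 1.5.2 and GRCm38. Libraries were made with poly(A) selection, and the handling of strand and of multiply matching reads was not given in the sources used here, which can affect overlapping genes. Gene lengths and coordinates came from GENCODE M21, which held 99.5% of the genes.

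Genes were filtered with filterByExpr, leaving 18295, scaled by TMM, and tested with edgeR 4.0.16 in R 4.3.3 (quasi-likelihood F test, all 12 mice, no covariate, Benjamini-Hochberg adjustment over all tested genes, threshold of 0.05). DESeq2 1.42.0, limma 3.58.1 voom, other scalings, filters, covariates and subsets, and each mouse left out, were alternatives. The fits on mitochondrial share, without mice 649 and 887 and in males without mouse 702 were chosen after seeing the data. CPM used library totals without TMM. Correlations used log2(CPM + 4) with 100000 permutations, two-sided. Exact tests enumerated 924 splits. No 2 libraries agreed within sampling noise (over 66 pairs, chi-square divided by its degrees of freedom was at least 10.6). The edgeR step was tested on simulated data. Members and lists were chosen with earlier results of these data known.

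Genes named were the members, the called genes or else the 3 highest per kb of each related list, 2 neighbours per member, called markers and the targeted genes, and a few genes that this rule names are not reported here. No covariate for batch was possible, as the labels name none.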

Additional observations from a re-analysis of the deposited data

Results flagged for a closer look

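In a search of 22 groups of 6 mice (the CPM of each member, the pan-neuronal score and the mitochondrial share, each in both genotypes), 3 groups held a mouse far from the others by Dixon's criterion, where chance gives about 1 in 20, or 1.1 groups. Trpv1 was at 94.4 CPM in Nf2 mouse 649, and the next Nf2 mouse was at 71.6 CPM. Asic3 was at 106 CPM in DKO mouse 887, against 77.7 CPM in the next DKO mouse. The mitochondrial share of mouse 887 was 5.60%, against 2.52% in the next DKO mouse. Mice 649 and 887 are those with the highest mitochondrial shares of their genotypes, and without them the genotype differences were 0.071 ± 0.095 for Trpv1 and -0.038 ± 0.099 for Asic3 on the log2 scale (SE). The part of RNA quality in these values was not tested.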

How the results depend on the processing

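No member passed the genotype, sex or interaction threshold under any alternative run, except Trpm3 for genotype with the pan-neuronal score as covariate, where the count of members past the threshold was 1 in place of 0 (0.48 ± 0.11, edgeR adjusted p of 0.0317). The sign of the genotype difference held in all 27 alternatives for Trpm3, Asic1 and Piezo2. It changed in 2 for Trpm8, 5 for Trpa1, 6 for Asic2, 8 each for Trpv1 and P2rx3 and 12 for Asic3. Leaving out each mouse in turn moved Trpm3 between 0.22 and 0.46, Piezo2 between 0.053 and 0.14 and Asic1 between 0.085 and 0.18. The count of all genes past the genotype threshold, 172, moved to 831 with DESeq2, 521 with voom, 898 with the pan-neuronal score, 504 with the mitochondrial share and 78 with the skeletal muscle score as covariate, 2 in males, 9 in males without mouse 702 (an alternative chosen after seeing the data), 57 in females and 314 without mice 649 and 887, and ranged from 81 to 217 with each mouse left out. For sex the count of 3 became 5 with DESeq2 and ranged from 0 to 10 with each mouse left out, the 10 without mouse 702. For the interaction the count of 2 became 20 with DESeq2 and ranged from 2 to 6. By longest transcript, 7 of 9 members kept their place in the order of levels. The causes were not tested. Library totals limited no member, since the lowest count was 314 reads. No paired analysis was possible because no mouse number occurs in both genotypes.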
